A study of Mus musculus with 23 samples.

Results

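Uninjected tibialis anterior muscle, a fast muscle of the lower leg, was compared between RE-RE and wild-type mice. All sham libraries entered the comparison, 11 of the 23 in the series. RE-RE contributed 4 libraries, of which libraries 1 and 2 were taken at zeitgeber time (ZT) 0, lights on, and libraries 3 and 4 at ZT12, lights off. Wild-type contributed 7 libraries, of which libraries 1 to 4 were taken at ZT0 and libraries 5 to 7 at ZT12. All mice were female C57BL/6 animals with food at all times, and sham meant that the muscle was not injected. RE-RE mice carry Bmal1(stopFL/stopFL), a Bmal1 gene blocked on both copies by a stop that Cre recombinase removes, and the wild-type mice carry no such allele. Their drivers are Syt10-Cre(-/tg), active in neurons such as those of the suprachiasmatic nucleus, the central clock of the brain, and Hsa-Cre(-/tg), active in skeletal muscle fibres. Muscle cells other than fibres thus keep the blocked gene. The RE-RE mice were 10 to 11 weeks old and the wild-type mice 12 to 18 weeks, so genotype and age cannot be told apart. Values are FPKM, fragments scaled to transcript length and library size, and differences are log2 RE-RE minus wild-type.

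Bmal1 is another name of Arntl, the activator at the centre of the circadian clock. Its protein pairs with CLOCK or NPAS2 and binds E-boxes near the genes of its own repressors, the period and cryptochrome proteins, and of REV-ERB proteins such as Nr1d1. REV-ERB proteins repress Arntl, Clock and Npas2, while ROR proteins activate them at the same sites, and in muscle the clock times the use of glucose and fat.

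The RE-RE libraries did not form an even group. On the first principal component, which carried 31.4% of the variance of the 11 libraries, RE-RE libraries 1 and 3 lay at 81.0 and 69.6 and all others between -43.8 and 2.15. The skeletal muscle markers Ckm, Acta1, Myh4, Myh1, Tnnt3, Pvalb and Atp2a1 were high in every library, but they split in RE-RE libraries 1 and 3. Acta1, the main actin of skeletal muscle, was 7281 and 8081 FPKM there, against 20166 and 18823 in libraries 2 and 4 and 14480 to 22330 in wild-type. Myh4, Myh1 and Atp2a1 also lay below the wild-type range in libraries 1 and 3. Tnnt3 went the other way, at 18534 and 21451 FPKM in libraries 1 and 3. It was 12078 and 12604 in libraries 2 and 4 and 11392 to 13594 in wild-type. Ckm lay above the wild-type range in libraries 1, 2 and 3, and Pvalb was higher in libraries 1 and 3 than in libraries 2 and 4. The median residual SD of a gene was 0.459 among RE-RE and 0.200 among wild-type libraries, and 85.5% of genes spread more among the former, so adjusted p values from the spread pooled over both genotypes are too small here. Reads recovered from the smallest FPKM steps came to 21.1 to 31.4 M per sham library, the fewest in RE-RE library 1. Transcripts of the mitochondrial genome took 15.4% to 27.6% of them in RE-RE and 15.3% to 21.2% in wild-type.

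Bone transcripts set the RE-RE libraries apart from one another in a second way. The bone gene list, 33 genes of osteoblasts, osteocytes and osteoclasts with 24 in the table, summed to 748, 130.0, 46.8 and 281 FPKM in RE-RE libraries 1 to 4 and to 29.1 to 79.4 FPKM in wild-type. Ibsp, bone sialoprotein, was 124, 12.1, 2.43 and 47.5 FPKM in RE-RE libraries 1 to 4 and 0 to 8.35 in wild-type. Mmp13, a collagenase of bone and cartilage, was 159, 15.5, 2.41 and 61.7 FPKM against 0.0497 to 9.45. Libraries 1 and 4 were highest for both, and library 3 lay within the wild-type range for both. Spp1, osteopontin, and Bglap2, an osteocalcin, followed the same order, at 165, 17.1, 5.84 and 50.7 FPKM and at 36.5, 8.78, 0.574 and 10.9 FPKM. Tnn, tenascin N, spanned 0.288 to 6.88 FPKM and Col11a1, a fibrillar collagen, 0.323 to 8.10 FPKM among the RE-RE libraries. These 6 were named for their range among the RE-RE libraries, so the values describe them and test nothing.

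**Figure D1:**
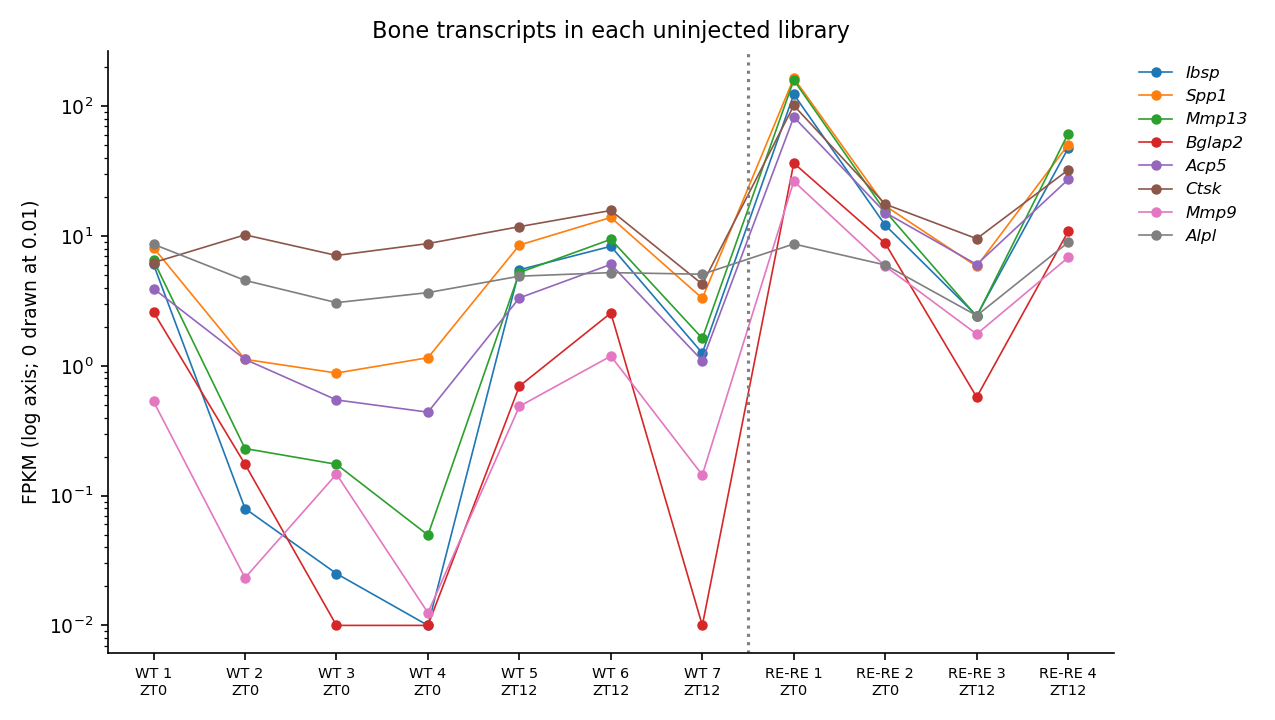
FPKM (log axis, 0 drawn at 0.01) of 8 bone genes in the 7 wild-type (WT) and 4 RE-RE sham libraries, with lines joining the values of a gene across libraries that have no order. RE-RE libraries 1 and 4 stand highest for Ibsp, Spp1 and Mmp13, whereas RE-RE library 3 lies at 2.43 FPKM for Ibsp, inside the wild-type range of 0 to 8.35.

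Bone genes were therefore set apart from the other genes. A bone score, the mean over the 18 tested bone genes of log2 FPKM centred on each gene, was 2.81, 1.41, -0.30 and 2.15 in RE-RE libraries 1 to 4 and -2.14 to 0.56 in wild-type. As a covariate beside genotype and time it had a slope past an adjusted p under 0.05 (limma) for 10 of 11826 genes, 0.0846%. Those 10 were Mmp13, Acp5, Spp1, Tnn, Ibsp, Col12a1, Clec11a, Col11a1, Sp7 and Bglap2, of which 6 are part of the score. They and the other tested bone and cartilage genes, 23 in all, were set apart. The bone list had a median log2 difference of 1.96, beside 0.04 over all genes tested, and one of 0.77 without RE-RE libraries 1 and 4. A fit with the score takes out the shared difference of these genes by construction, so their values in it are not read. In the fit without the score, the bone list has 1 member past the test for genotype, Mmp9, a gelatinase of osteoclasts and white blood cells. Mmp9 was 26.5, 5.86, 1.76 and 6.85 FPKM in RE-RE libraries 1 to 4, and its wild-type libraries had a lowest value of 0.0125, a median of 0.146 and a highest of 1.19. The groups do not overlap, and the log2 difference was 5.15 ± 1.07 (SE; limma adjusted p = 0.0440), or 4.07 without RE-RE libraries 1 and 4 (adjusted p = 0.101). It did not pass without RE-RE library 1 or without wild-type library 2, 3, 4, 5 or 7. Whether the RE-RE muscles held more bone tissue at collection was not tested.

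Arntl, the gene that the stop blocks, was read in every library. In RE-RE it was 11.0 and 14.3 FPKM at ZT0 and 2.83 and 4.07 at ZT12. In wild-type it was 15.1, 14.4, 11.7 and 15.7 FPKM at ZT0 and 1.94, 1.94 and 2.22 at ZT12. The genotypes thus overlapped at ZT0 (log2 -0.17 ± 0.20 SE), and both RE-RE libraries lay above all 3 wild-type libraries at ZT12 (0.74 ± 0.21). Over both times the difference was 0.26 ± 0.19 (limma adjusted p = 0.369). Reads cannot tell the restored from the blocked allele, nor one cell type from another, and in bulk samples fewer cells of a type and less RNA per cell cannot be told apart.

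None of the 20 clock genes passed the test between genotypes (limma), where 1.21% of all genes did, and 8 of them had an unadjusted p under 0.05, where 27.6% of all genes did. The 6 clock activators had a median log2 difference of 0.61, with 5 higher in RE-RE by estimate, and a median of 0.39 without RE-RE libraries 1 and 3. Npas2, the alternative partner of Arntl, differed most, by 2.03 ± 0.53 (limma adjusted p = 0.0726). Its values were 1.93 and 1.495 FPKM at ZT0 and 0.576 and 1.97 at ZT12 in RE-RE, against 0.757 to 1.39 at ZT0 and 0.0656 to 0.106 at ZT12 in wild-type. At ZT12 both RE-RE libraries lay above all 3 wild-type libraries, and the log2 difference there was 3.47 ± 0.53, against 0.73 ± 0.50 at ZT0. The difference between those effects was 2.74 ± 0.73 (unadjusted p = 0.00320), which did not pass over all genes, where 2 genes or 0.0169% did and 2.26% had an unadjusted p under 0.05. For the genotype difference at a single time, with the spread taken from all 11 libraries, 13 of all genes passed at ZT0, 0.11%. At ZT12 4 passed, 0.0338%, and none of these genes was a clock gene. Fits on the libraries of 1 time alone gave 11 genes at ZT0 and 0 at ZT12. Clock, the main partner of Arntl, was 7.74 and 4.75 FPKM in RE-RE and 3.55 to 4.91 in wild-type at ZT0, and 3.94 and 2.40 against 1.63 to 2.22 at ZT12. Rora, which activates Arntl, had a difference of 0.64 ± 0.20 (limma adjusted p = 0.0932). Some clock genes passed under other settings. With all 23 libraries in the fit 5 of the 20 passed (Npas2, Clock, Nr1d1, Ciart and Bhlhe41), beside 1239 of all genes. Without RE-RE library 2 there were 6 (Npas2, Clock, Nr1d1, Ciart, Per1 and Per3), beside 777, and without RE-RE library 4 also 6 (Npas2, Clock, Nr1d1, Ciart, Rora and Nr1d2), beside 2925. With libraries scaled by the totals of their recovered reads (own totals) Ciart passed, at -1.06 (adjusted p = 0.0365).

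Among the repressors, Nr1d1, which encodes REV-ERB alpha, was 6.20 and 23.6 FPKM at ZT0 and 4.24 and 10.1 at ZT12 in RE-RE. In wild-type it was 24.5 to 29.5 FPKM at ZT0 and 16.6 to 28.7 at ZT12. All 4 RE-RE libraries lay below the wild-type libraries of the same time, with a log2 difference of -1.41 ± 0.34 (limma adjusted p = 0.0652). The lowest value at each time was that of library 1 or 3, and without these 2 libraries the difference was -0.61 (adjusted p = 0.229). Ciart, a repressor of the Arntl and CLOCK pair, was 0.431 and 0.528 FPKM at ZT0 and 2.37 and 2.66 at ZT12 in RE-RE, against 0.873 to 1.33 and 3.0 to 5.18 in wild-type. Its groups did not overlap at either time (log2 -0.89 ± 0.20, limma adjusted p = 0.0537), nor did those of Bhlhe41, the repressor also called DEC2, at 2.80 and 3.75 against 3.79 to 6.00 FPKM at ZT0 and 5.81 and 6.43 against 7.12 to 8.88 at ZT12 (-0.46 ± 0.15). For Nr1d1, Ciart and Bhlhe41 each time had only 2 RE-RE libraries. The share of all genes with no overlap within a single time was not counted. Nr1d2, the relative of Nr1d1, had a difference of 0.28 ± 0.17, of the opposite sign to Nr1d1. Per1, Per2 and Per3 had differences of -0.84 ± 0.46, -0.15 ± 0.36 and -0.55 ± 0.29, and the 6 period and cryptochrome repressors a median of -0.35, which was 0.17 without RE-RE libraries 1 and 3. Per1 is 1 of the genes on which libraries 1 and 3 bear, at 1.13 and 3.53 FPKM there and at 6.83 and 11.6 in libraries 2 and 4. Without libraries 1 and 3 the differences of Per1, Per2 and Per3 were 0.24, 0.51 and 0.06. Dbp, an output of the clock that binds D-boxes, was 2.93 and 5.604 FPKM at ZT0 and 23.7 and 24.0 at ZT12 in RE-RE, against 2.36 to 4.42 and 30.4 to 44.2 in wild-type (-0.10 ± 0.25 over both times). Cry1 and Cry2, the cryptochromes, differed by 0.01 ± 0.11 and -0.01 ± 0.20.

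**Figure D2:**
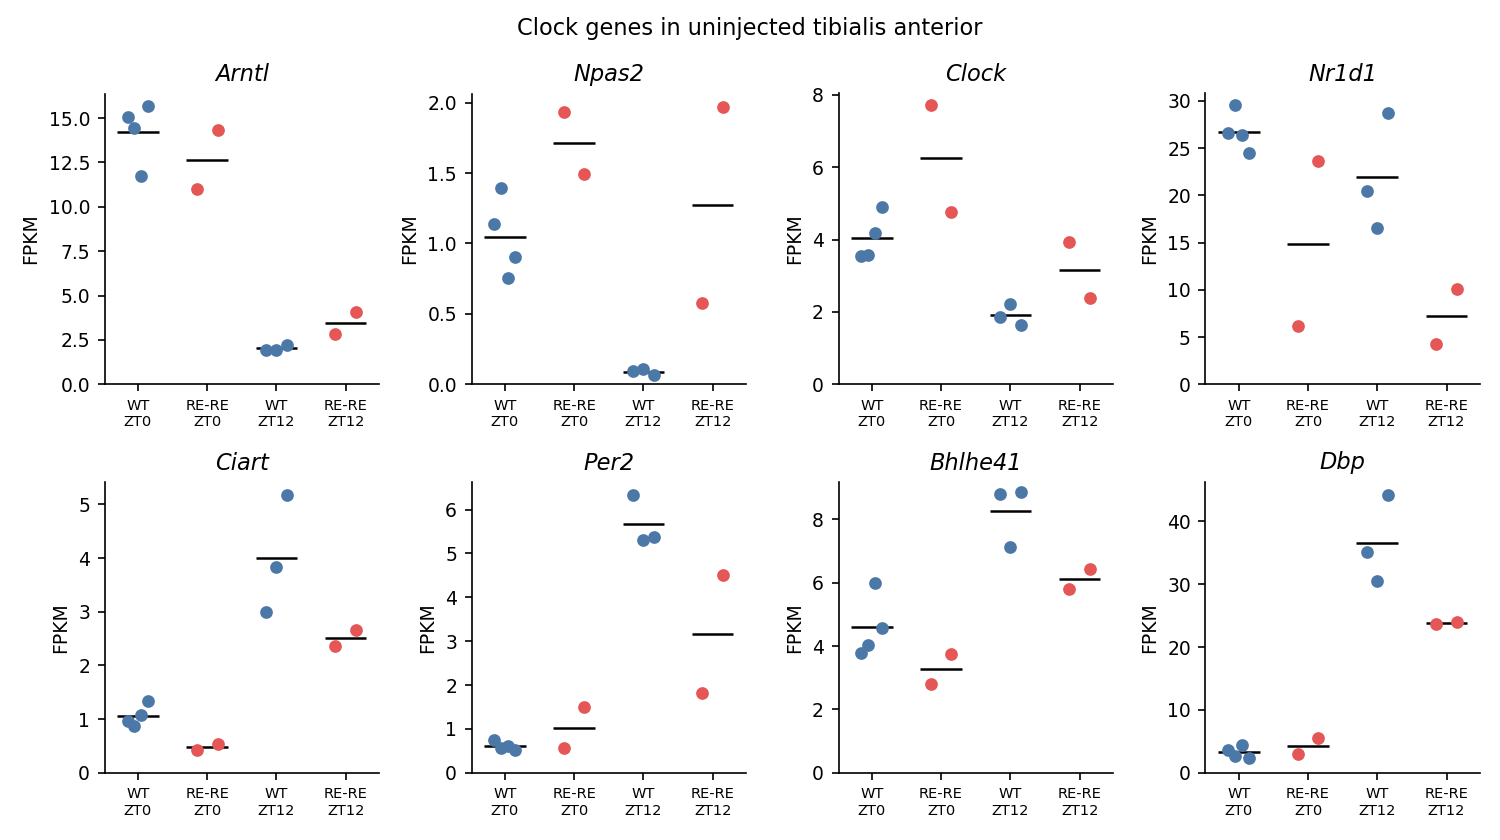
FPKM of 8 clock genes in each sham library by genotype and time, each point 1 library and each line the group mean, on axes that start at 0. At ZT12 Npas2 is 0.576 and 1.97 in RE-RE and 0.0656 to 0.106 in wild-type, and Nr1d1 lies lower in RE-RE than in wild-type at both times.

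The promoters of 3 of these repressors show the site that Arntl binds. Each is the 250 bases before a transcription start in RefSeq (GRCm38.p6), printed on the strand of the gene with the E-box CACGTG in capitals. Ciart (chr3:95882229-95882478, minus strand) holds it at 3 places, which start 116, 58 and 44 bases before the start site, and Per1 (chr11:69098699-69098948, plus strand) and Bhlhe41 (chr6:145865421-145865670, minus strand) at 1 place each, 166 and 153 bases before it. Per1 has a second start in the table, and the window before that one (chr11:69099902-69100151) holds no CACGTG.
Ciart: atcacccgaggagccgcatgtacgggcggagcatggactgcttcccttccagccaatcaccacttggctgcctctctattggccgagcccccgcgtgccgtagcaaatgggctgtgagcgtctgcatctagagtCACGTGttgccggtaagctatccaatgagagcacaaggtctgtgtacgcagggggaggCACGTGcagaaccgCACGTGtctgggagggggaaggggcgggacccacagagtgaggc
Per1: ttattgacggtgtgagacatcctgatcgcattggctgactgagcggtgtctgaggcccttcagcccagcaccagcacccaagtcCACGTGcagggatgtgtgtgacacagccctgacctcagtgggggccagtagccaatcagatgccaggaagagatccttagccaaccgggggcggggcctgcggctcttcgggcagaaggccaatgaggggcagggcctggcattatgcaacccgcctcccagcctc
Bhlhe41: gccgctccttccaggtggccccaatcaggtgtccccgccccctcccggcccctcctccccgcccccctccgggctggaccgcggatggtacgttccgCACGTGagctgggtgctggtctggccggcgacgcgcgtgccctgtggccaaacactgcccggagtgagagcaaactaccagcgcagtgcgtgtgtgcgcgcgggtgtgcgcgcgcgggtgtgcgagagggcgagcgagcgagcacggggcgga
Of the 20 clock genes 17 matched a window by symbol, and 5 of them held a CACGTG, which reads the same on both strands: Ciart, Per1, Bhlhe41, Cry1 and Tef. Tef, a relative of Dbp, had a log2 difference of 0.03 ± 0.16 between genotypes. The motif was present for 10.2% of 8506 tested genes with a window. It was present for 6 of 50 genes past the test and higher in RE-RE, 12.0%, and for 2 of 50 lower ones, 4.0%. The half-site AGGTCA to which REV-ERB and ROR proteins bind, sought on both strands, was present for 13.0% of tested genes, and for 8 of 50 higher and 10 of 50 lower ones. A match to these letters is a description and not a measured binding site.

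Across all genes, 143 of 11826 passed at an adjusted p under 0.05 (limma), 1.21%, with 68 higher in RE-RE (0.575%) and 75 lower (0.634%). In 407 genes, 3.44%, the 4 RE-RE libraries all lay outside the range of the 7 wild-type libraries, 225 above (1.9%) and 182 below (1.54%), and these include 50 of the 68 higher and 64 of the 75 lower genes. With libraries scaled by the totals of their recovered reads, which moved the median of all genes from 0.04 to -0.13, the split was 39 higher and 103 lower. The count rests on single libraries: leaving out RE-RE libraries 1 to 4 one at a time gave 26, 777, 63 and 2925 genes, and leaving out wild-type libraries 1 to 7 gave 85, 47, 73, 38, 26, 50 and 34. It was 100 without RE-RE libraries 1 and 3, with 35 genes in common, 54 without libraries 1 and 4, 5 with age as a covariate, 3 with the bone score (0.0254%) and 2 with a variance for each genotype.

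Scd1 and Podn had the smallest p values of all genes tested. Scd1, stearoyl-CoA desaturase, the enzyme that puts a double bond into saturated fatty acids (ENSMUSG00000037071, GRCm38 chromosome 19, 44394455 to 44407879), rose. It was 12.6, 13.5, 9.11 and 15.7 FPKM in RE-RE libraries 1 to 4, whereas the lowest, median and highest wild-type values were 1.02, 2.32 and 2.92. Every RE-RE library was thus over 3 times the highest wild-type library, and the log2 difference was 2.61 ± 0.22 (limma adjusted p = 0.000358), a 6.11-fold rise. Podn, podocan, a proteoglycan of the extracellular matrix (ENSMUSG00000028600, chromosome 4, 108014791 to 108096445), fell. It was 0.538, 0.479, 0.393 and 0.374 FPKM in RE-RE, against a lowest of 1.88, a median of 2.76 and a highest of 4.25 in wild-type. Its 4 RE-RE libraries lay close together and far below wild-type, at a log2 difference of -2.62 ± 0.22 (limma adjusted p = 0.000358), 6.16-fold lower. Both passed without any 1 of the 11 libraries and with a variance for each genotype (2.62 and -2.64, limma adjusted p = 0.00577 for both). With the bone score they also passed (2.42 and -2.90, limma adjusted p = 0.0496 and 0.0176). Both passed with age as a covariate too (2.88 and -2.88). The ages of the 2 genotypes do not overlap, so that fit cannot separate age from genotype. With the bone score the third gene past the test was Fmo2, a flavin monooxygenase, at a difference of -1.41 ± 0.19 without the score.

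Outside the genes set apart with bone, the 12 largest rises were Scd1, Spon2, Ces1d, Hpgd, Cdo1, Barx2, Ak4, Itga4, Cp, Rbp7, Sgcd and Lmbrd2. Ces1d, a carboxylesterase that splits lipid esters (ENSMUSG00000056973, chromosome 8, 93166068 to 93197838), was 58.1, 57.4, 56.8 and 48.0 FPKM in RE-RE and 4.91, 12.9 and 20.4 at the lowest, median and highest wild-type library. That is 5.001-fold higher (log2 2.32 ± 0.36, limma adjusted p = 0.0155), with no overlap, and without RE-RE library 1 the difference was 2.37 and did not pass (adjusted p = 0.0609). Rbp7, a retinol-binding protein (chromosome 4, 149449687 to 149454978), was 6.59, 5.52, 6.03 and 6.34 FPKM in RE-RE against 1.44, 2.16 and 2.57. Its RE-RE libraries lay close together, and the difference of 1.61 ± 0.17 (adjusted p = 0.00218) passed without any 1 library. Ak4, a mitochondrial adenylate kinase (chromosome 4, 101419277 to 101466995), was 3.43, 5.55, 5.13 and 2.07 FPKM against 0.823, 1.02 and 1.32, and Cp, ceruloplasmin, the copper protein that oxidizes iron, was 3.85, 1.84, 1.58 and 2.53 against 0.550, 0.778 and 0.838. Both lay above wild-type in 4 of 4 libraries (1.86 ± 0.26 and 1.67 ± 0.24) and also passed without any 1 library. The RE-RE libraries stood in the order of the bone score for Cp, as they did for Spon2 among these 12, and without RE-RE libraries 1 and 4 the difference of Cp was 1.23 (adjusted p = 0.0600).

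Hpgd, which degrades prostaglandins, and Cdo1, cysteine dioxygenase, had no overlap with wild-type (log2 2.15 ± 0.42 and 2.095 ± 0.43), nor had Barx2, a homeobox factor of muscle precursor cells, and Itga4, an integrin subunit (1.89 ± 0.40 and 1.81 ± 0.32). Hpgd was 7.94 FPKM in RE-RE library 1 and 1.93 to 3.71 in the other 3, and its difference was 1.12 with the bone score in the fit. Spon2, a secreted matrix protein, Sgcd, the delta-sarcoglycan of the dystrophin complex, and Lmbrd2, a membrane protein, overlapped with wild-type (2.52 ± 0.51, 1.52 ± 0.29 and 1.47 ± 0.28). Spon2 was 8.27, 2.78, 0.973 and 4.33 FPKM in RE-RE against 0.139 to 2.93, and its difference was 1.62 without RE-RE libraries 1 and 4 (adjusted p = 0.0789). Of the 11 fits that left out 1 library, Itga4 passed in 7, Hpgd, Cdo1 and Lmbrd2 in 3, and Spon2, Barx2 and Sgcd in 2. Their log2 differences over those fits stayed between 1.23 and 3.10. Leaving out RE-RE library 1 ended the call of each of these 7, and so did leaving out RE-RE library 3 or wild-type library 2.

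**Figure D3:**
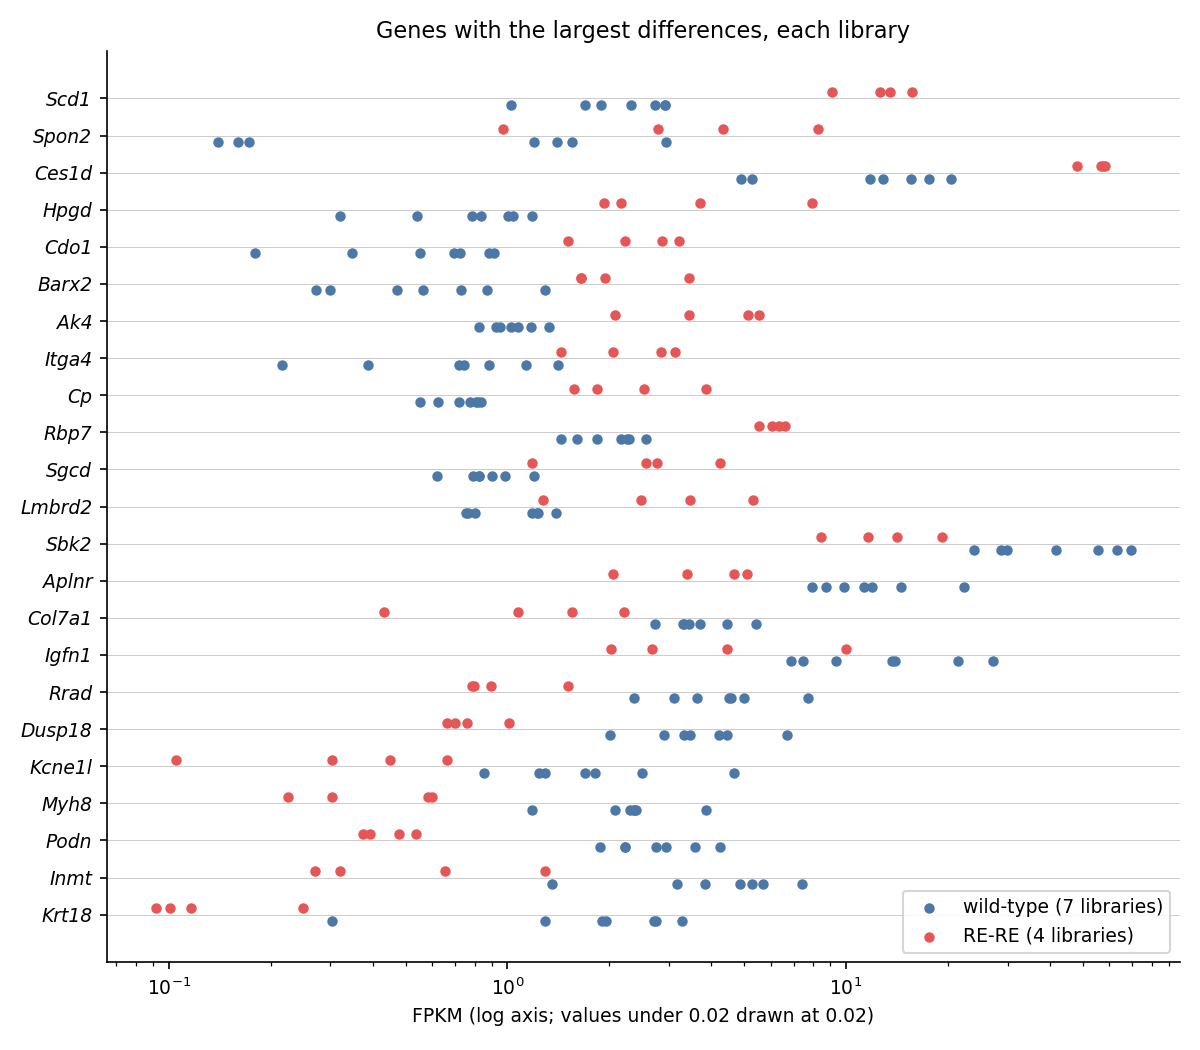
FPKM (log axis) of the 12 largest rises and 11 of the 12 largest falls past the test, each point 1 sham library, RE-RE drawn above wild-type in each row. Scd1 lies at 9.11 to 15.7 in RE-RE and 1.02 to 2.92 in wild-type, Podn at 0.374 to 0.538 and 1.88 to 4.25, whereas Spon2, Sgcd, Lmbrd2 and Igfn1 overlap.

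The largest falls included Krt18, Inmt, Podn, Myh8, Kcne1l, Dusp18, Rrad, Igfn1, Col7a1, Aplnr and Sbk2. Krt18, a keratin (ENSMUSG00000023043, chromosome 15, 102028180 to 102032027), was 0.249, 0.0914, 0.116 and 0.101 FPKM in RE-RE against 0.302, 1.95 and 3.29 at the lowest, median and highest wild-type library. The highest RE-RE and the lowest wild-type library were close together, the log2 difference was -3.61 ± 0.58 (limma adjusted p = 0.0189), and without wild-type library 5 it was -3.42 and did not pass (adjusted p = 0.0567). Inmt, an N-methyltransferase of indoles such as tryptamine (chromosome 6, 55170626 to 55175043), was 0.653, 0.320, 0.270 and 1.29 FPKM against 1.35, 4.87 and 7.43, a difference of -2.99 ± 0.43. Myh8, the myosin of perinatal fibres (chromosome 11, 67277124 to 67308634), was 0.225, 0.583, 0.303 and 0.598 FPKM against 1.18, 2.36 and 3.85. It fell 5.64-fold (-2.50 ± 0.34, limma adjusted p = 0.00963). With age as a covariate the difference was -2.37 and did not pass (limma adjusted p = 0.150), and age and genotype cannot be told apart. Dusp18, a dual-specificity phosphatase (chromosome 11, 3895240 to 3901296), was 0.661, 1.013, 0.759 and 0.699 FPKM against 2.00, 3.47 and 6.69 (-2.25 ± 0.24, adjusted p = 0.00252). Rrad, a small GTPase that restrains calcium channels (chromosome 8, 104628070 to 104631327), was 0.796, 0.785, 1.51 and 0.894 FPKM against 2.36, 4.50 and 7.71 (-2.11 ± 0.29). Inmt, Myh8, Dusp18 and Rrad passed without any 1 library. Dusp18 also passed with age as a covariate (-2.72, limma adjusted p = 0.0278), a fit that cannot separate age from genotype.

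Igfn1, a sarcomeric protein with immunoglobulin and fibronectin domains, was 2.02, 2.67, 9.97 and 4.46 FPKM in RE-RE against 6.88, 13.7 and 27.2 in wild-type, with library 3 inside the wild-type range. Its difference of -1.78 ± 0.27 became -1.65 without RE-RE library 1 and then did not pass (adjusted p = 0.0720). Aplnr, the apelin receptor, and Sbk2, a kinase of striated muscle, were lower in 4 of 4 libraries, at 2.05 to 5.10 against 7.93 to 22.3 FPKM and at 8.46 to 19.2 against 23.9 to 69.5. Kcne1l, a subunit of potassium channels, and Col7a1, the collagen of anchoring fibrils, had no overlap either, at differences of -2.39 ± 0.49 and -1.73 ± 0.34. Of the 11 fits that left out 1 library, Aplnr passed in 6, Sbk2 in 4, Kcne1l in 3 and Col7a1 in 2, at differences between -2.71 and -1.28. Leaving out RE-RE library 1 or 3, or wild-type library 4, 5 or 7, ended the call of each of these 4.

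Fat metabolism holds 3 of the genes past the test. Of 15 tested genes of fatty acid and triglyceride synthesis 2 rose, Scd1 and Agpat2, at a list median of -0.01, and of 19 tested genes of fatty acid use 1 rose, Cd36, at a median of 0.38. The background is 0.575% of genes higher, and the median of all genes is 0.04. Members of these lists past the test were chosen as examples after their values were seen. Agpat2, which makes the phosphatidic acid of triglyceride synthesis, was 3.37, 4.54, 4.17 and 3.22 FPKM in RE-RE against 1.55, 1.89 and 2.49 in wild-type (log2 1.011 ± 0.16, limma adjusted p = 0.0189; 1.06 and adjusted p = 0.0551 without RE-RE library 1). Cd36, a carrier of fatty acids into the cell, was 187, 113, 108 and 118 FPKM against 67.6, 79.1 and 88.0 (0.72 ± 0.15, adjusted p = 0.0499), and passed in 2 of the 11 fits that left out 1 library, those without RE-RE library 2 or 4. It was 0.53 without RE-RE library 1. By estimate 18 of the 19 fatty acid use genes were higher in RE-RE, where 53.6% of all genes were. The median of the list was 0.72 at ZT0 and -0.09 at ZT12, and 0.21 with own totals. Higher by estimate over both times were Lpl, lipoprotein lipase (0.57 ± 0.18), and Acadm, a dehydrogenase of beta-oxidation (0.56 ± 0.20). Gpam, which starts triglyceride synthesis, had a difference of 0.77 ± 0.20 and Fasn, fatty acid synthase, of 0.99 ± 0.32 (adjusted p = 0.0747 and 0.101), while Srebf1, the factor that drives such genes, had one of -0.74 ± 0.27.

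Markers of fat cells were read beside these genes. Adipoq, adiponectin, was 4.39, 0.587, 1.84 and 1.39 FPKM in RE-RE and 0.114 to 0.744 in wild-type (2.35 ± 0.59), and Cfd, adipsin, was 21.7, 6.38, 15.1 and 11.8 against 1.70 to 8.86 (1.65 ± 0.40). Plin1, a coat protein of fat droplets, was under the filter for testing, at 0.339 to 1.005 FPKM in RE-RE and 0.0410 to 0.257 in wild-type. Of 15 adipocyte genes 9 were tested and 0 passed (limma), although 3 were higher and 1 lower at an unadjusted p under 0.05 (15.2% and 12.4% of all genes), and Fabp4, a fatty acid binding protein of fat and endothelial cells, had a difference of -0.08. The list summed to 1703 to 6209 FPKM in RE-RE and 1718 to 2532 in wild-type, most of it from Car3, a carbonic anhydrase that muscle also makes. The part of fat cells in the rises of Scd1, Ces1d, Rbp7, Cdo1, Agpat2 and Cd36 was not tested.

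Genes of glucose use did not pass, and Ppp1r3c and Pdk4 stood above the wild-type range in 2 and 3 of the 4 RE-RE libraries. Ppp1r3c, which targets a phosphatase to glycogen, was 289, 216, 132.5 and 89.7 FPKM in RE-RE against 27.5 to 204 in wild-type (1.18 ± 0.27, limma adjusted p = 0.0573). Pdk4, a kinase that inhibits pyruvate dehydrogenase, was 259.7, 440.04, 73.8 and 263 FPKM against 64.0 to 142 (1.16 ± 0.41), high in 3 libraries and within the wild-type range in library 3. The 19 genes of glycogen and glucose control had a median of 0.14, or -0.03 with own totals, and 8 of them were higher at an unadjusted p under 0.05, where 15.2% of all genes were. The 16 glycolytic enzymes had a median of -0.12 and the 13 genes of the mitochondrial genome one of 0.39, all 13 higher by estimate and 0 past the test (limma), with 0 at an unadjusted p under 0.05. Without RE-RE libraries 1 and 3, which had the largest mitochondrial shares, that median was -0.04.

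Of 21 tested antioxidant enzymes and targets of NRF2, 2 rose, where 0.575% of all genes did. Gstm2, a glutathione transferase, was 61.1, 49.2, 76.0 and 44.4 FPKM in RE-RE against 21.6, 28.8 and 36.7 in wild-type, and Gpx3, the secreted glutathione peroxidase, was 191, 137, 167 and 114 against 53.2, 76.9 and 92.3. Both were higher in 4 of 4 libraries and had a difference of 0.96 (SE 0.17 and 0.19; limma adjusted p = 0.0301 and 0.0365). They passed in 5 and 3 of the 11 fits that left out 1 library, with differences between 0.76 and 1.10, and neither passed without RE-RE library 1 or wild-type library 2, 4, 5, 6 or 7. The list median was 0.14, or -0.03 with own totals. Of 13 genes of p53 and senescence 1 fell, Phlda3, which restrains AKT, at 102 to 128 against 130.1 to 296 FPKM (-0.72 ± 0.15), where 0.634% of all genes fell. It passed in 2 of the 11 fits that left out 1 library, those without RE-RE library 2 or 4.

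Among genes of the fibre itself, Mstn, myostatin, the secreted brake on muscle growth, rose, in a list of 16 atrophy genes with a median of 0.14 (-0.03 with own totals). It was 48.0, 19.1, 31.7 and 30.0 FPKM in RE-RE against 9.13, 10.2 and 18.1 in wild-type (1.34 ± 0.26, limma adjusted p = 0.0365). The lowest RE-RE library lay just above the highest wild-type library, and Mstn passed in 3 of 11 fits that left out 1 library, those without wild-type library 3 and without RE-RE library 2 or 4. Cacna2d1, an outer subunit of the muscle calcium channel, was 95.5, 64.4, 71.3 and 48.6 FPKM against 34.5, 40.0 and 50.0, with library 4 inside the wild-type range (0.76 ± 0.16, adjusted p = 0.0481, passing in 2 of the 11 fits, those without RE-RE library 2 or 4). Of 4 tested developmental sarcomere genes, 1 fell, Myh8, and the list median was -1.28. That median was -1.86 at ZT0 and -0.64 at ZT12, -0.71 with log2(FPKM + 1) and -0.31 over the 2 of the 4 whose log2 FPKM averaged at least 1. Myl4, an embryonic myosin light chain, was 1.17 to 3.43 FPKM in RE-RE against 3.08 to 5.92 (-1.11 ± 0.26, adjusted p = 0.062), and Myh3, the embryonic myosin, had a difference of -1.46 ± 0.49, whereas Actc1, cardiac actin, had one of 0.48 ± 0.34. None of 15 slow-fibre genes passed (limma), and 3 were lower at an unadjusted p under 0.05 (12.4% of all genes were) at a list median of -0.33, which was -0.62 at ZT0, 0.03 at ZT12 and -0.04 without RE-RE libraries 1 and 4. Sln, sarcolipin, which curbs the calcium pump, was 5.27, 3.97, 15.8 and 6.93 FPKM against 6.67 to 49.5 (-2.11 ± 0.49). Csrp3, a protein of the Z-disc, was 9.99 to 46.5 against 21.6 to 332 (-1.99 ± 0.62). By estimate 4 of the 15 slow-fibre genes were higher in RE-RE and 11 lower. The slow-fibre markers Myl2 and Tnni1 were 27.3 and 5.57 FPKM in RE-RE library 3, above the wild-type ranges of 1.33 to 19.2 and 0.965 to 4.46. Elsewhere in RE-RE they were 3.37 to 6.23 and 0.675 to 0.848. Myh7 was 0.0243 to 1.32 in RE-RE against 0.211 to 7.29, and Tnnt1 was 2.91 to 9.52 against 2.26 to 19.2. None of 13 fast-fibre genes passed, at a median of 0.02, with 1 lower at an unadjusted p under 0.05.

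**Figure D4:**
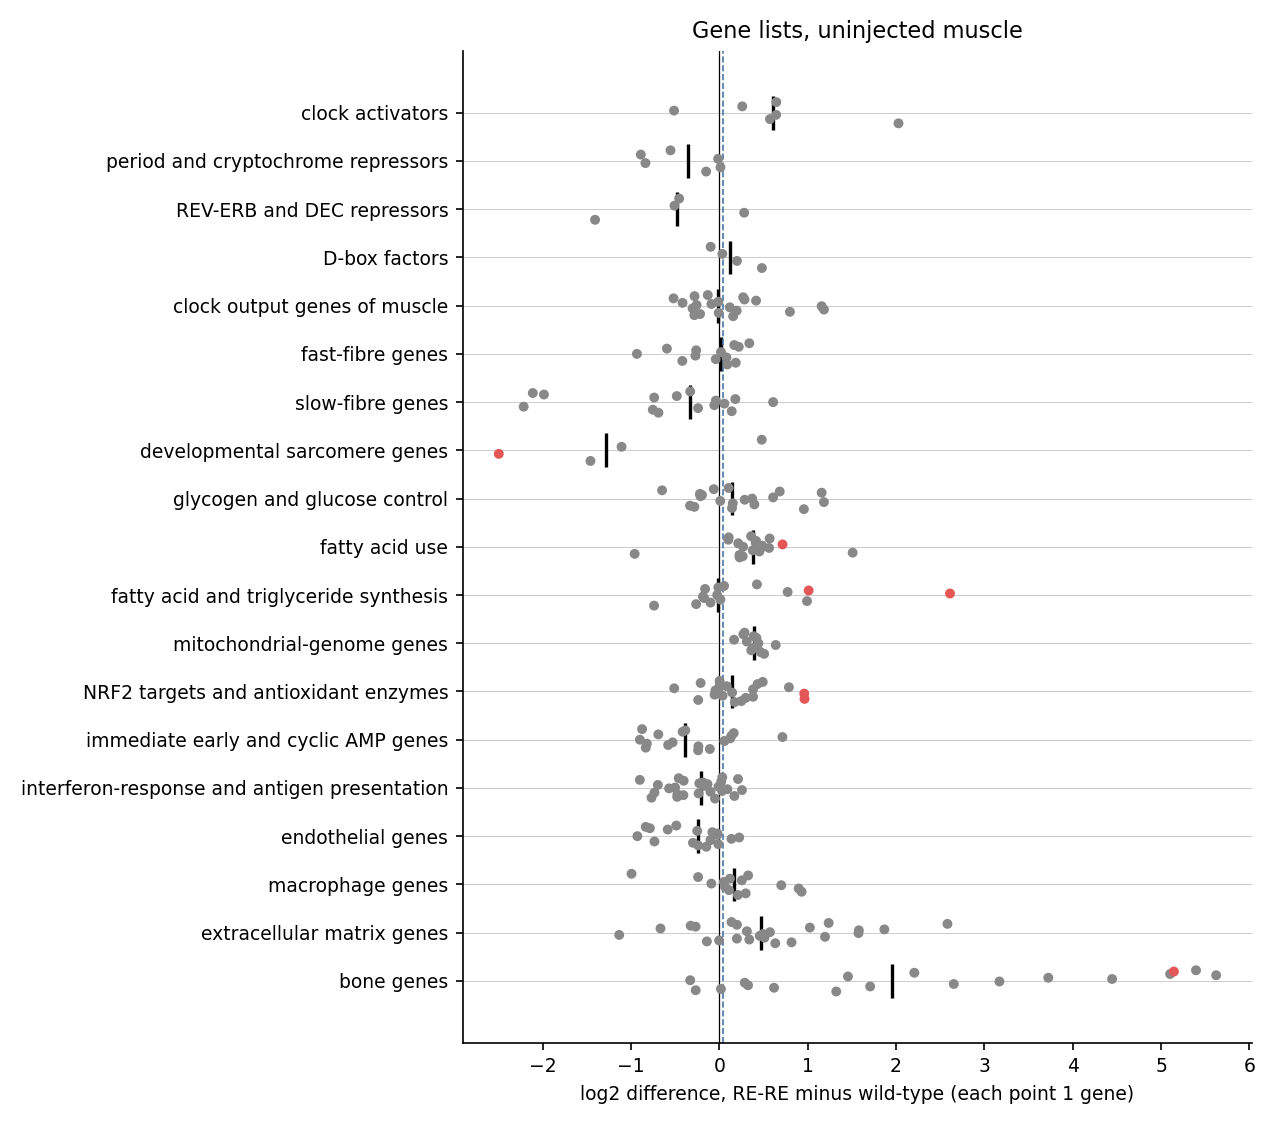
Log2 difference, RE-RE minus wild-type, of the tested genes in 19 lists, each point 1 gene, red where it passed the test, with a black bar at the list median and a dashed line at the median of all genes, 0.04. The bone list reaches above 5, the developmental sarcomere genes have a median of -1.28, and no list holds more than 2 red points.

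Lists for other cells of the muscle had 1 member past the test beside Mmp9. Prg4, lubricin, of the tendon list, was 0.716, 0.229, 0.354 and 0.680 FPKM in RE-RE against 1.02, 1.21 and 1.97 in wild-type (-1.58 ± 0.33, limma adjusted p = 0.0434), and passed in 3 of the 11 fits that left out 1 library, those without RE-RE library 1, 2 or 4. Endothelial genes had a median of -0.24, with 15 of 17 lower by estimate (46.4% of all genes were), and Cdh5, their cadherin, was 10.4 and 8.31 FPKM in RE-RE libraries 1 and 3 against 29.0 and 31.7 in libraries 2 and 4 and 22.7 to 42.6 in wild-type. Pecam1, another endothelial marker, was 12.0, 16.5, 12.1 and 20.6 FPKM in RE-RE libraries 1 to 4, all within the wild-type range of 11.5 to 21.8. Without libraries 1 and 3 the endothelial median was 0.15. Extracellular matrix genes had a median of 0.46, which was -0.18 with the bone score and -0.11 without libraries 1 and 4. Col1a1, the main collagen of bone and tendon, was 159.6, 58.8, 22.9 and 97.9 FPKM against 19.4 to 55.7, in the order of the bone score. Immediate early genes had a median of -0.39, with 8 of 17 lower at an unadjusted p under 0.05, where 12.4% of all genes were, and 0 past the test (limma). Without RE-RE libraries 1 and 3 the median was -0.18, and without libraries 1 and 4 it was -0.12. Macrophage genes had a median of 0.17 (-0.01 with own totals, -0.36 without RE-RE libraries 1 and 3), and of 17 genes of neutrophils and marrow 1 is in the table and 0 were tested.

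The same genotypes in 6-OHDA-injected muscle gave values from 12 libraries that the sham comparison did not use, 4 RE-RE and 8 wild-type. The muscle had repeated injections of 50 mg/kg of 6-OHDA, which destroys nerves of the sympathetic system, and the RE-RE mice were 12 to 18 weeks old and the wild-type mice 12 to 16. By the ages given, no RE-RE animal and no wild-type animal at ZT0 gave both an injected and an uninjected muscle. Among wild-type libraries at ZT12, an age of 12 weeks occurs in both treatments, and whether those came from 1 animal is not stated. There 8 of 12279 genes passed, 0.0652%, 2 higher (0.0163%) and 6 lower (0.0489%), while 9.76% had an unadjusted p under 0.05, and Dusp18 was the 1 gene past the test in both comparisons, at -1.86 ± 0.28 in injected muscle (limma adjusted p = 0.0485). Of the 143 genes past the test in sham muscle, 141 were tested in injected muscle. Of 68 higher ones 53 were higher there by estimate, and of 73 lower ones 63 were lower, where 51.6% and 48.4% of all genes were. At an unadjusted p under 0.05, 13 of the 68 and 34 of the 73 differed the same way, where 4.15% and 5.43% of all genes did. The count of 8 was 0 to 11 without 1 library, the 0 without RE-RE injected library 4.

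Among the largest differences, Podn was lower in injected muscle too, at -1.79 ± 0.32 (limma adjusted p = 0.0766), as was Sbk2, at -1.48 ± 0.25 (0.062), while neither passed there. Inmt had a difference of -2.53 ± 0.93, Rbp7 of 1.49 ± 0.33 and Ces1d of 2.18 ± 1.007, each near its value in sham muscle. Scd1 had a difference of 0.28 ± 0.48, against 2.61 ± 0.22 in sham muscle, and Hpgd of -0.16, Lmbrd2 of -0.43 and Col7a1 of 0.05. The bone list had a median of -0.70 in injected muscle, against 1.96 in sham muscle. Npas2 had a difference of 2.32 ± 0.60 and Arntl of 0.49 ± 0.22 there, and Nr1d1 of -0.30 ± 0.26. Whether the genotype difference of a gene differed between sham and injected muscle was not tested.

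**Figure D5:**
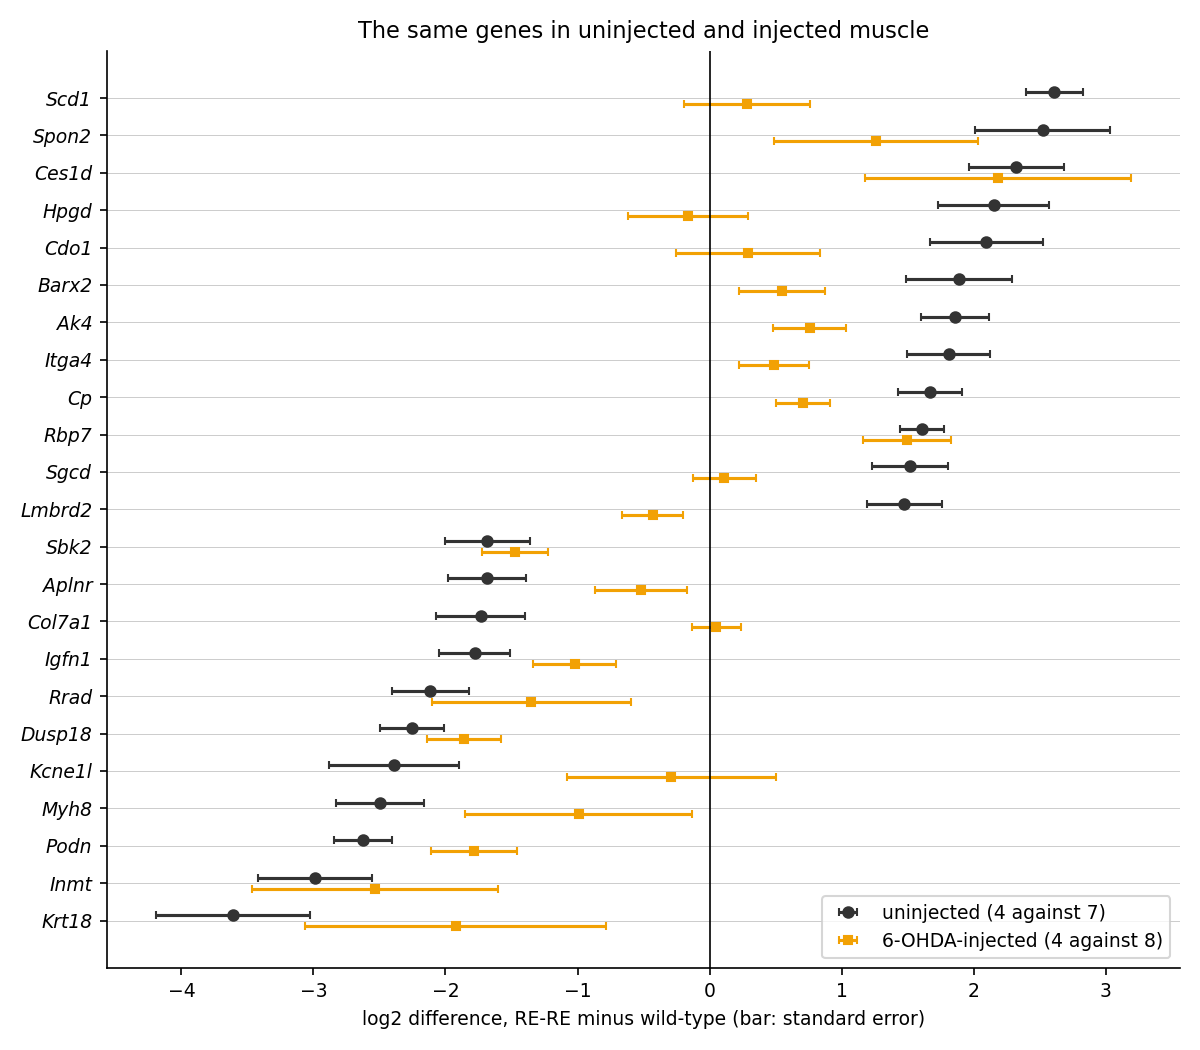
Log2 difference, RE-RE minus wild-type, of 23 of the 24 genes with the largest differences in sham muscle (black circles, 4 against 7 libraries) and the same genes in 6-OHDA-injected muscle (orange squares, 4 against 8), with bars for the standard error. Dusp18, Rbp7 and Sbk2 lie near their sham values, at -1.86, 1.49 and -1.48. Podn lies at -1.79, against -2.62 in sham muscle, whereas Scd1 lies at 0.28 and Hpgd at -0.16.

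The mice carry a changed Arntl allele, and a transgene may sit near the gene whose driver it uses, so genes past the test within 10 Mb of Arntl and Syt10 were listed. Near Arntl, on chromosome 7, 2 of 105 tested genes passed, 1.90%, and near Syt10, on chromosome 15, 3 of 166, 1.81%, beside 1.21% of all genes. Chp2, a calcineurin-like calcium-binding protein (chromosome 7, 122219496 to 122222824), was 3.47, 2.98, 2.40 and 2.61 FPKM in RE-RE against 0.956, 1.61 and 1.85 in wild-type (1.003 ± 0.14, limma adjusted p = 0.00963) and passed without any 1 library. Gprc5b, an orphan receptor (chromosome 7, 118972047 to 118995211), was 2.20 to 3.69 FPKM against 4.39 to 6.34 (-0.84 ± 0.17). On chromosome 15, Alg10b, a glucosyltransferase, was 4.17 to 9.02 against 2.57 to 3.91 FPKM (1.007 ± 0.19), Slc38a4, an amino acid carrier, was 13.0 to 35.4 against 6.59 to 23.7 (0.89 ± 0.14), and Mirlet7b, a microRNA gene of let-7, was listed at 0 in 3 of 4 RE-RE libraries and at 1.10 in the fourth, against 0.484 to 3.39. Gprc5b, Alg10b, Slc38a4 and Mirlet7b passed in 3, 2, 8 and 2 of the 11 fits that left out 1 library, and none of them passed without RE-RE library 1.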

How the data were processed

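Total RNA of whole tibialis anterior was sequenced, and values of 14500 genes in 23 libraries were deposited as log2 FPKM, after the authors had added 0.01. The submitters' processing notes name, with no order, edgeR 3.30.0, HISAT2 2.1.0, featureCounts 1.6.2, FastQC 0.11.8, Trim Galore 0.5.0 and the build GRCm38. The factor that scales libraries to one another is not given in the sources used here. The smallest FPKM steps gave whole reads (within 0.1 read, up to 20 reads) for 86.4% to 91.1% of values of the sham libraries.

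Genes with at least 1 FPKM in at least 2 of the 11 sham libraries were fitted with limma 3.58.1 (R 4.3.3; lmFit, eBayes with a trend) on genotype and time, with Benjamini-Hochberg adjustment over all 11826 genes and a threshold of 0.05. The procedure was tested on simulated data with independent noise in each value, which lack the shared shift of RE-RE libraries 1 and 3. The labels do not name animals, but ages differ within each genotype, and libraries of different ages came from different animals. Wild-type libraries 1 and 2 (13 weeks, ZT0) share age and time, as do RE-RE libraries 3 and 4 (11 weeks, ZT12). Whether those came from separate animals is not stated. The p-values measure the spread between these libraries, part of which may be technical. Named genes were the 20 clock genes, the 12 largest rises and falls with a mean of at least 2 FPKM in 1 genotype, a named symbol and no move with bone transcripts, 6 bone genes, and genes past the test near Arntl and Syt10. Of these, 1 clock gene and 1 of the falls are not reported here. The comparison, the 46 gene lists and the rules were chosen with earlier results of these data known. Other scalings, filters, pseudocounts, covariates and left-out libraries were tried. Coordinates are from GENCODE M21 (GRCm38), and 14428 genes had a symbol.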

Additional observations from a re-analysis of the deposited data

Results flagged for a closer look

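Among 128 groups of values of the named genes, 4 held a library far from the rest of its group, where chance gives about 5%. Krt18 was 0.3024 FPKM in wild-type library 1, far below the other wild-type libraries. Ces1d was 48.02 FPKM in RE-RE library 4, below the other 3, which lay at 56.8 to 58.1. Cd36 was 186.7 FPKM in RE-RE library 1, above the other 3 at 108 to 118. Mirlet7b was 1.105 FPKM in RE-RE library 4 and listed at 0 in the other 3.

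The genotype difference itself differed between ZT0 and ZT12 for 2 of 11826 genes, 0.0169% (limma interaction term), and 267 genes had an unadjusted p under 0.05. Both are small nucleolar RNA genes with libraries listed at 0, so the size of the estimate depends on the added 0.01 FPKM. Gm23823 (chromosome 14) had a change of -9.397 in the log2 difference from ZT0 to ZT12 (adjusted p = 0.00295). It was listed at 0 in all 4 wild-type libraries at ZT0, and RE-RE held 9.55 and 3.10 FPKM there. Gm25108 (chromosome 6) had a change of 5.642 (adjusted p = 0.0194). It was listed at 0 in both RE-RE libraries at ZT0 and was 0.694 and 0.602 FPKM at ZT12, against 1.008 to 2.37 in wild-type.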

How the results depend on the processing

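The count of 143 genes (68 higher, 75 lower) was 2 (1 and 1) with a variance for each genotype, 5 (2 and 3) with age, 3 (1 and 2) with the bone score, 11 (2 and 9) in ZT0 libraries, 0 (0 and 0) in ZT12 libraries, where 840 genes had an unadjusted p under 0.05, and 1239 (619 and 620) with all 23 libraries in the fit. It was 54 (21 and 33) without RE-RE libraries 1 and 4, an alternative chosen after seeing the data, and 100 (34 and 66) without libraries 1 and 3. Own totals gave 142 (39 and 103), and a mean log2 FPKM of at least 1 gave 101 (54 and 47). Leaving out 1 library gave 26 to 2925 genes, 7 to 1742 higher and 16 to 1183 lower. The count of 3 with the bone score was 1 with own totals or quantile normalization and 0 to 6 without 1 library. The count of 8 in injected muscle was 20 with log2(FPKM + 1), 0 with a variance for each genotype, where 566 genes had an unadjusted p under 0.05, and 0 to 11 without 1 library. The causes were not tested. Same-numbered deviations from group means correlated between genotypes at -0.0963, 0.166, 0.342 and -0.119 for numbers 1 to 4, and numbers 3 and 4 join different times. The 2 RE-RE libraries of a time have mirrored deviations, so these values cannot show whether replicate numbers pair the libraries. With the replicate block 15 genes passed (7 higher, 8 lower; 4 of them among the 143). Of the 38 named genes past the test, 0 changed sign in any alternative run. Of the 26 not past it, 9 passed with all 23 libraries, 6 without RE-RE library 2, 6 without RE-RE library 4, and 1 each with own totals, with the replicate block and without RE-RE library 3. Some of these 26 changed sign. With the bone score, Ibsp was -1.16, Mmp13 -0.84, Tnn -0.84, Bglap2 -0.52, Col11a1 -0.30 and Spp1 -0.24, and Tef -0.0033; Ibsp, Mmp13, Bglap2 and Spp1 are part of that score, which lowers them by construction. With the replicate block, Arntl was -0.23, Per2 0.50, Dbp 0.38, Cry2 0.00874 and Nfil3 -0.0082. In ZT0 libraries Arntl was -0.17, Per2 0.59, Dbp 0.35 and Cry2 0.0789, and in ZT12 libraries Tef was -0.21. Without RE-RE libraries 1 and 3, Per1 was 0.24, Per2 0.51, Per3 0.0557, Dbp 0.14 and Cry2 0.35, and without 1 and 4 Dbp was 0.13 and Cry2 0.0962. With no time covariate Per2 was 0.0384, Dbp 0.13, Cry2 0.0479 and Cry1 -0.0161. Quantile normalization gave Per2 0.0546, Cry2 0.0124, Cry1 -0.0237 and Tef -0.12, own totals Cry1 -0.16 and Tef -0.14, limma-voom on recovered reads Cry1 -0.0336 and Tef -0.0167, and median centring Cry2 0.00578. Without 1 library, Per2 ranged from -0.63 to 0.26, Dbp from -0.41 to 0.0127, Cry2 from -0.22 to 0.15, Cry1 from -0.065 to 0.095 and Tef from -0.15 to 0.13. Recovered depth was lowest, 21.1 M reads, in RE-RE library 1, which limits the low genes there.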
